A study of Mus musculus with 6 samples.

Results

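The genes examined here are the 8 genes of fructose uptake and fructolysis, *Slc2a2*, *Slc2a5*, *Slc2a8*, *Khk*, *Tkfc*, *Glyctk*, *Akr1b3* and *Sord*, among the 56691 Ensembl genes of the deposited table. They were chosen by their symbols as the hexose transporters that carry fructose, the kinases of fructolysis and the enzymes of the polyol route. Each symbol matched 1 row. The choice followed no rule on measured values, but earlier results of these data were known when it was made. Liver RNA came from 3 KPF dams (hChrebp-KO) and 3 WPF dams, all of them pregnant and fed a high-fructose diet (HFrD) throughout pregnancy. The hChrebp-KO dams carried the floxed alleles of *Mlxipl*, the gene of the sugar-sensing transcription factor ChREBP, together with Alb-Cre, which removes 1 exon in hepatocytes. The state of the gene in the other cells of the liver was not given in the sources used here. The labels call the WPF genotype WT, whereas the study's methods describe these dams as Chrebp flox/flox without Cre, and both groups were mated with Chrebp flox/flox males. The age of the dams was not given in the sources used here. The question was how the handling of dietary fructose differs at the mRNA level when hepatocytes lack ChREBP.

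Fructose enters hepatocytes through facilitative transporters of the GLUT family, chiefly GLUT2 (*Slc2a2*), which also carries glucose. GLUT5 (*Slc2a5*) is the high-affinity fructose carrier of the intestine, and GLUT8 (*Slc2a8*) is a mostly intracellular hexose transporter. Ketohexokinase (*Khk*) phosphorylates fructose to fructose-1-phosphate, which is split into dihydroxyacetone phosphate and glyceraldehyde, and triokinase (*Tkfc*) phosphorylates the glyceraldehyde so that it can enter glycolysis or lipogenesis. Glycerate kinase (*Glyctk*) takes up the branch in which glyceraldehyde is first oxidized to glycerate. In the polyol route, aldose reductase (*Akr1b3*) reduces glucose to sorbitol and sorbitol dehydrogenase (*Sord*) oxidizes sorbitol to fructose. ChREBP is activated by sugar phosphates in the hepatocyte and is known to drive genes of glycolysis, fructolysis and lipogenesis.

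In GRCm39, the build named in the submitters' processing notes, the deposited table places *Slc2a2* (ENSMUSG00000027690) at chr3:28752052-28785508 on the plus strand, *Khk* (ENSMUSG00000029162) at chr5:31078775-31088592 on the plus strand and *Tkfc* (ENSMUSG00000034371) at chr19:10565155-10583018 on the minus strand. These are the members with the largest differences between the groups, and their promoters are shown for that reason. The windows were taken from RefSeq on GRCm38.p6, an earlier build, and run from 250 bases before to 50 bases after the start site of the gene. A window was found for 7 of the 8 members (none for *Akr1b3*). They were searched on both strands for CACGTG (the E-box that forms part of the carbohydrate response element), for the full carbohydrate response element consensus, for TATAAA and for CCAAT, which reads ATTGG where it lies on the opposite strand. A carbohydrate response element can contain CACGTG, whereas the other motifs share no such overlap. Capitals mark the matches, and each sequence is written 5′ to 3′ on the strand of the gene.
*Khk*, chr5:30921476-30921505, plus strand: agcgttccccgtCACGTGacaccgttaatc
*Tkfc*, chr19:10604307-10604336, minus strand: ggcatgacattgCCAATcggctgcccatac
*Slc2a2*, chr3:28697653-28697902, plus strand: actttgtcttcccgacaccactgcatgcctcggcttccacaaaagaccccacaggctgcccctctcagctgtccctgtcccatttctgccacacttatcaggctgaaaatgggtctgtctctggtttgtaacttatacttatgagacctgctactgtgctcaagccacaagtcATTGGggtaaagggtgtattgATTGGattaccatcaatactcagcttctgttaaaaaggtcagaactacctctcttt

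CACGTG stood in 1 of the 7 windows, that of *Khk*, where it begins 71 bases before the start site. It is also found in 7.15% of the 32851 RefSeq windows of this length. CCAAT begins 66 bases before the start site of *Tkfc* and 77 and 56 bases before that of *Slc2a2*. It was also present in the windows of *Slc2a8* (5 matches, of which 2 overlap each other) and *Glyctk* (1 match), and in 37.4% of all windows. TATAAA (13.6% of all windows) and the full carbohydrate response element consensus (0.119%) were not in the windows of the 7 members. The 250 bases before the start site overlap annotated exons of any gene by 128 bases for *Khk*, 15 for *Tkfc* and 89 for *Slc2a5*. The overlap is 90 bases for *Sord*, 250 for *Glyctk* and 0 for *Slc2a2* and *Slc2a8*. The motif hits are matches of letters and not measured binding.

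Between 10694496 and 11567941 reads were counted on genes in the KPF libraries and between 12988865 and 14496630 in the WPF libraries, so every KPF library was shallower than every WPF library. *Mlxipl* stood at 961, 1260 and 879 CPM (read counts relative to the library total after edgeR's TMM scaling) in WPF replicates 2, 3 and 4, against 179, 700 and 849 CPM in KPF replicates 1, 2 and 3. The groups did not overlap, but the counts cover the whole gene and not the deleted exon, and the difference did not pass the test (log2 fold change -0.84, standard error (SE) 0.53, adjusted p = 0.584 from edgeR). The hepatocyte markers were high in all libraries, with a summed level of 36925 to 44001 FPKM (counts relative to exonic length and library total) in KPF and 51677 to 71315 FPKM in WPF, and 0 of the 7 were called. KPF replicate 2 stood apart by its skeletal muscle markers, which summed to 1915 FPKM there against 3.93 to 6.25 FPKM in the other 5 libraries, and 5 of the 5 were called higher in KPF. Markers of stellate cells and fibroblasts summed to 18.8 to 149 FPKM in KPF and 11.9 to 18.1 FPKM in WPF, with 4 of 7 called higher. The upper value was that of KPF replicate 2, where *Des*, which muscle also expresses, made up 129 FPKM. Adipocyte markers summed to 1.68 to 22.1 FPKM in KPF and at most 0.39 FPKM in WPF, with 1 of 1 tested called higher and *Lep* listed at 0 in all libraries. WPF replicate 4 stood among the KPF libraries for *Khk* and *Tkfc*. The part of these other cells and of either library in the differences was not tested, and the results for *Slc2a2*, *Khk* and *Tkfc* are given with and without them where they are described. In liver tissue, fewer cells of a type and less RNA per cell cannot be told apart.

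*Khk*, *Tkfc* and *Slc2a2*, which encode the first kinase, the second kinase and the main hepatic transporter of the pathway, were lower in KPF, to between 2.89-fold and 3.77-fold below WPF. The other members were not called: *Sord* and *Slc2a8* had estimates near 0, *Glyctk* and *Akr1b3* had estimates above 0 and *Slc2a5* was barely expressed. A gene was called changed at an unadjusted p under 0.05 in edgeR's quasi-likelihood test with a change of at least 1.5-fold. By that rule 3 of the 6 members with a mean FPKM of at least 1 were called, all lower, where 9.82% of the 10866 genes tested were called in either direction and 3.98% were called lower. With this filter on low values and all 6 libraries, no gene had an adjusted p under 0.05 in edgeR (smallest adjusted p = 0.397). Without the filter, edgeR gave an adjusted p of 0.0185 for *Slc2a2* and 0.0410 for *Khk*. At an unadjusted p under 0.05 edgeR listed 1177 genes, and 156 genes had an adjusted p under 0.05 in DESeq2. The following counts of called members are over all 8, with those below the FPKM minimum included. The count was 2 without KPF replicate 2 and 1 without WPF replicate 2. It was 4 without WPF replicate 4, where *Akr1b3*, which is below that minimum, was added. Without KPF replicate 3 it was also 3, but these were *Slc2a2* (lower), *Glyctk* and *Akr1b3* (both higher). Of the 10866 tested genes, 550 were called higher and 487 lower without KPF replicate 2. These numbers were 355 and 286 without WPF replicate 2, 628 and 535 without WPF replicate 4, and 910 and 709 without KPF replicate 3. The median log2 fold change of all 8 members was -0.44, beside 0.02 over all tested genes.

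**Figure D1:**
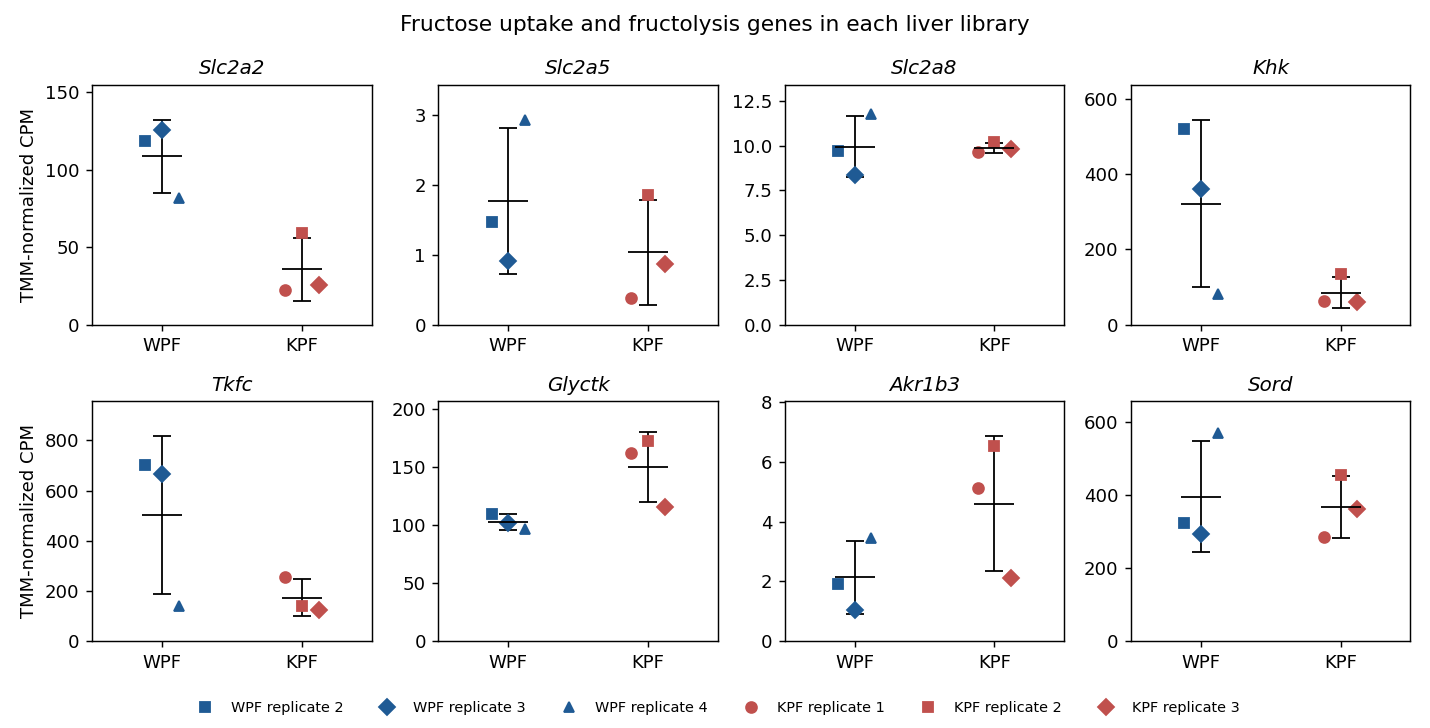
TMM-normalized CPM of the 8 genes (vertical axes, linear from 0) in the WPF (blue) and KPF (red) livers. Each symbol is 1 library, and the bars give the mean and SD of 3 dams. The 3 KPF points of Slc2a2 lie below every WPF point, whereas WPF replicate 4 lies among the KPF points for Khk and Tkfc.

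*Slc2a2* was the only called member whose groups did not overlap. WPF replicates 2, 3 and 4 had 118, 126 and 81.6 CPM, and KPF replicates 1, 2 and 3 had 22.6, 58.9 and 25.5 CPM. The KPF dams all lay below the WPF dams, as in 8.15% of all tested genes, and KPF replicate 2 was the highest of its group. On average WPF stood at 109 ± 23.7 CPM and KPF at 35.6 ± 20.2 CPM (SD, n = 3 each), which is 3.04-fold lower in KPF. The log2 fold change was -1.61 (SE 0.41, 95% interval -2.56 to -0.65), and edgeR's quasi-likelihood test gave an unadjusted p of 0.00487 (adjusted p = 0.430). The exact two-sided permutation test gave p = 0.1, the smallest value it can give for 3 dams against 3. The log2 fold change was -2.18 without KPF replicate 2 and -1.78 without WPF replicate 4, and *Slc2a2* was called in each of the 15 alternative settings. With DESeq2 its adjusted p was 0.0168.

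The other fructose carriers were not called. *Slc2a8*, at chr2:32863002-32872095 on the minus strand, had 9.68, 8.36 and 11.8 CPM in WPF replicates 2 to 4 and 9.62, 10.2 and 9.80 CPM in KPF replicates 1 to 3. The KPF libraries lay within the range of the WPF libraries, and the log2 fold change was -0.01 with a 95% interval of -0.54 to 0.52 in edgeR, which leaves room for differences of up to that size in either direction. *Slc2a5*, at chr4:150203740-150228626 on the plus strand, was close to the limit of detection, with 4, 21 and 9 reads in KPF and 17, 13 and 50 reads in WPF. Its mean of 0.427 FPKM kept it out of the adjusted test, and its log2 fold change of -0.77 had a 95% interval of -2.35 to 0.81. Of the intestinal epithelial markers, *Cdh17* was listed at 0 in all 6 libraries and *Lct* and *Cdx2* at 0.12 FPKM or less. *Fabp2* ranged from 13.0 to 33.4 FPKM and was not called (log2 fold change -0.19, 95% interval -0.97 to 0.59 in edgeR). *Slc5a1*, the sodium-coupled glucose carrier on the same marker list, was at 0.11 to 0.13 FPKM in KPF and at 0.62 to 0.89 FPKM in WPF, below the FPKM minimum of the test.

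*Khk* had 521, 362 and 82.5 CPM in WPF replicates 2, 3 and 4 and 61.9, 134 and 60.4 CPM in KPF replicates 1, 2 and 3. WPF replicates 2 and 3 were far above all other libraries, and WPF replicate 4 fell between KPF replicates 1 and 2, so the groups overlapped. The WPF mean was 322 ± 222 CPM and the KPF mean 85.5 ± 42.1 CPM (SD, n = 3 each), and the log2 fold change was -1.91 (SE 0.66, 95% interval -3.44 to -0.39) or 3.77-fold lower. In edgeR the unadjusted p was 0.0204 (adjusted p = 0.430). The exact two-sided permutation test gave p = 0.2. Without WPF replicate 4 the log2 fold change of *Khk* was -2.38, and without KPF replicate 2 it was -2.40. The call was lost without KPF replicate 1, without KPF replicate 3 and without WPF replicate 2, with unadjusted edgeR p of 0.0658, 0.0679 and 0.0794.

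*Tkfc* followed a similar course over the WPF dams, at 704, 665 and 142 CPM in replicates 2, 3 and 4, and stood at 257, 139 and 125 CPM in KPF replicates 1, 2 and 3. WPF replicate 4 again lay among the KPF libraries. The highest KPF value belonged to replicate 1, the library with the lowest *Mlxipl*. The log2 fold change was -1.53 (SE 0.60, 95% interval -2.93 to -0.14), or 2.89-fold lower in KPF, and edgeR gave an unadjusted p of 0.0349 (adjusted p = 0.442). The exact two-sided permutation test gave p = 0.2. Without WPF replicate 4 the log2 fold change of *Tkfc* was -1.98, and without KPF replicate 2 it was -1.40. The call was lost when KPF replicate 2, KPF replicate 3, WPF replicate 2 or WPF replicate 3 was left out, with unadjusted edgeR p from 0.0812 to 0.112.

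*Glyctk*, at chr9:106030056-106035337 on the minus strand, was the only tested member with higher TMM-normalized CPM in every KPF library, although its raw counts overlapped between the groups. WPF replicates 2 to 4 had 110, 101 and 96.4 CPM, and KPF replicates 1 to 3 had 162, 172 and 116 CPM. KPF replicate 3 exceeded WPF replicate 2 by little, and in FPKM, which has no TMM scaling, it lay at 24.7 within the WPF range of 23.1 to 26.9. On the CPM scale 7.55% of all tested genes showed the same lack of overlap with KPF higher. The log2 fold change was 0.55 (SE 0.24, 95% interval -0.02 to 1.11) with an unadjusted p of 0.0550 in edgeR, so *Glyctk* was not called. Without KPF replicate 3 the log2 fold change was 0.70 and the unadjusted edgeR p was 0.0222, so *Glyctk* was called higher there, and with library totals in place of TMM it was 0.43.

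The genes of the polyol route were not called. *Sord*, at chr2:122065230-122095821 on the plus strand, had 325, 293 and 570 CPM in WPF replicates 2 to 4 and 284, 455 and 363 CPM in KPF replicates 1 to 3. The highest value was that of WPF replicate 4, the WPF library with the lowest *Khk* and *Tkfc*. The log2 fold change was -0.11 (95% interval -0.90 to 0.69, adjusted p = 0.921 in edgeR), and it was 0.24 without WPF replicate 4. *Akr1b3*, at chr6:34279369-34294413 on the minus strand, had 54, 74 and 22 reads in KPF and 22, 15 and 59 reads in WPF, and its mean of 0.407 FPKM was below the minimum of the test. The log2 fold change of *Akr1b3* was 1.10 (95% interval -0.23 to 2.42, unadjusted p = 0.0919 in edgeR), and 1.64 with an unadjusted p of 0.0316 without WPF replicate 4. Reads of *Akr1b3* can be shared with its close relatives *Akr1b7*, *Akr1b8* and *Akr1b10*, so its low counts are uncertain.

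**Figure D2:**
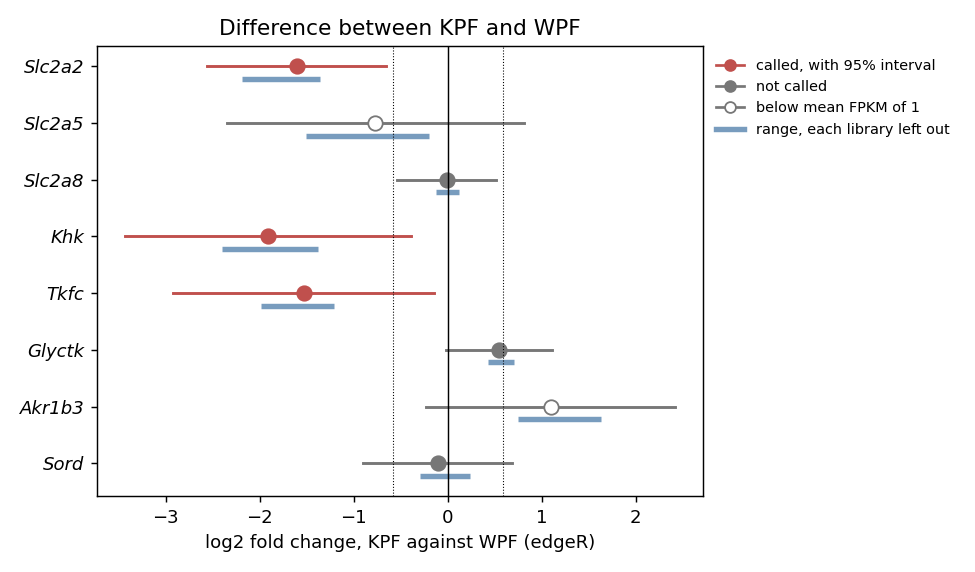
Log2 fold change of KPF against WPF for the 8 genes (horizontal axis, edgeR), with the 95% interval as a thin line and the range over the fits that leave out each library in turn as a blue bar. Red marks called genes, open circles mark genes with a mean FPKM under 1, and dotted lines mark a 1.5-fold change. The intervals of Slc2a2, Khk and Tkfc lie below 0, and that of Tkfc ends at -0.14.

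Per exonic length of the gene, *Sord* was the most abundant of the 8 genes on average. Its mean over the 6 libraries was 166 FPKM, before *Khk* at 112, *Tkfc* at 72.9, *Glyctk* at 29.8 and *Slc2a2* at 12.8. *Slc2a8* followed at 3.11, *Slc2a5* at 0.427 and *Akr1b3* at 0.407 FPKM. The order depends on the exonic lengths used, which ranged from 1797 bases for *Khk* to 8384 for *Akr1b3*. The first 4 places were not fixed: *Sord* was above *Khk* in 4 of the 6 libraries, *Khk* above *Tkfc* in 5 and *Tkfc* above *Glyctk* in 4. From *Glyctk* to *Slc2a2*, *Slc2a8* and *Slc2a5* each step held in 6 of 6 libraries, and *Slc2a5* was above *Akr1b3* in 3. *Khk* was the first gene in WPF replicates 2 and 3, at 259 and 219 FPKM, and *Sord* the first in WPF replicate 4 and in the 3 KPF libraries. *Khk* stood there at 54.1 FPKM in WPF replicate 4 and at 33.8, 74.2 and 30.3 FPKM in KPF replicates 1 to 3.

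The make-up of the set shifted with these levels. The 8 genes summed to 252, 352 and 225 FPKM in KPF replicates 1 to 3 and to 562, 563 and 425 FPKM in WPF replicates 2 to 4. *Khk* made up 46.0% and 38.8% of that sum in WPF replicates 2 and 3, and 12.7% in WPF replicate 4, beside 13.4%, 21.1% and 13.4% in KPF. *Sord* took the reverse course, at 21.9% and 24.0% in WPF replicates 2 and 3, 67.1% in WPF replicate 4 and 47.0% to 61.6% in KPF. The shares that did not overlap between the groups were those of *Glyctk*, at 12.5% ± 2.16 in KPF and 5.02% ± 1.16 in WPF, and of *Slc2a2*, at 2.06% ± 0.73 and 3.80% ± 0.49 (SD, n = 3 each). For each of the 2 shares the exact two-sided permutation test gave p = 0.1, the smallest possible, and 0.4 after adjustment over the 8 shares. A share within a library does not depend on the scaling between libraries, but it moves with the other 7 genes.

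**Figure D3:**
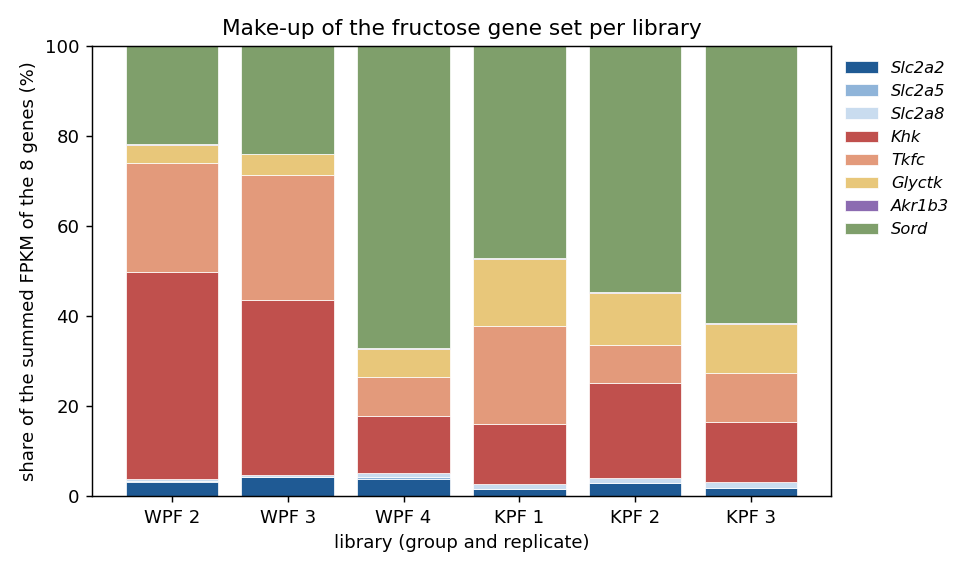
Share of each gene in the summed FPKM of the 8 genes (vertical axis, %) in each library (horizontal axis). Khk fills 46.0% and 38.8% of the bar in WPF replicates 2 and 3, whereas Sord fills 47.0% to 67.1% of the bar in WPF replicate 4 and the 3 KPF libraries.

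Ratios within a library need no scaling between libraries. The FPKM ratio of *Slc2a2* to *Slc2a8* was 1.31, 3.23 and 1.45 in KPF replicates 1 to 3. It was 6.80, 8.38 and 3.87 in WPF replicates 2 to 4, so the transporter ratio separated the groups. The exact two-sided permutation test gave p = 0.1, the smallest possible. Since *Slc2a8* had a log2 fold change of -0.01, this ratio adds little to the difference in *Slc2a2*. The ratio of *Khk* to *Sord* was 2.10 and 1.62 in WPF replicates 2 and 3 and between 0.189 and 0.386 in the other 4 libraries, the lowest being WPF replicate 4. The ratio of the kinases *Tkfc* and *Khk* to each other was 0.525 to 0.715 in WPF and 0.405 to 1.62 in KPF, without separation. The ratios of *Tkfc* to *Glyctk*, *Khk* to *Slc2a2* and *Tkfc* to *Sord* overlapped between the groups as well. Over the 6 libraries, log2 CPM of *Khk* correlated with that of *Tkfc* (Pearson r = 0.862) and *Slc2a2* (0.854), whereas *Tkfc* and *Slc2a2* gave 0.618. *Sord* correlated with *Slc2a8* (0.872) and with the barely expressed *Slc2a5* (0.883, the highest of all pairs). *Tkfc* ran opposite to *Slc2a8* (-0.674) and *Sord* (-0.668). These values describe 6 libraries that share the group difference and the low *Khk* and *Tkfc* of WPF replicate 4.

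The genes whose log2 CPM ran most like that of *Khk* over the 6 libraries, of 9011 tested genes with a mean of at least 5 CPM, were *Gatb* (r = 0.997), *Samm50* (0.992), *Vps37a* (0.988), *Plcxd1* (0.988) and *Itprid2* (0.986). For *Tkfc* they were *Dnaja2* (0.990), *Snx10* (0.988) and *Cul3* (0.984). A like pattern did not mean a like size, since the log2 fold change was -0.21 for *Gatb* and -2.45 for *Plcxd1*. All were picked as the highest of 9011 values of r over only 6 libraries, so high values come with the selection. No p was computed.

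Among the other GLUT transporters, 3 of 9 reached the FPKM minimum and 0 were called, with a median log2 fold change of 0.57. *Slc2a1* (GLUT1, the basal glucose carrier of many cell types) was counted at 12.8 to 13.7 CPM in KPF and 6.53 to 11.8 CPM in WPF, without overlap on the CPM scale but with overlap in FPKM (log2 fold change 0.57, SE 0.26, unadjusted p = 0.0659 in edgeR). *Slc2a4* (GLUT4, the insulin-responsive carrier of muscle and fat) stood at 15.7 FPKM in KPF replicate 2, the library with the high muscle markers, and at 0.04 to 3.62 FPKM in the others. *Slc2a9*, a urate and hexose carrier, ranged from 2.15 to 6.30 FPKM without a difference (log2 fold change 0.15).

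Of the other sugar kinases and the genes that handle fructose phosphates, 9 of 15 were tested, and 2 were called lower and 0 higher. Over all tested genes, 9.82% were called in either direction and 3.98% were called lower. The median log2 fold change of the list was 0.06. *Gckr*, a hepatic regulatory protein that binds fructose phosphates, was at 76.3, 71.7 and 92.9 FPKM in KPF and 155, 196 and 126 FPKM in WPF, without overlap (log2 fold change -0.87, unadjusted p = 0.0229 in edgeR). *Gpi1*, which interconverts the 6-phosphates of glucose and fructose, had a log2 fold change of -1.61 (unadjusted p = 0.0355 in edgeR) and shared the course of *Khk*, at 108 and 89.5 FPKM in WPF replicates 2 and 3, 21.4 FPKM in WPF replicate 4 and 14.3 to 30.2 FPKM in KPF.

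The counts of called genes in the next lists stand beside 9.82% of all tested genes called in either direction. The lists were not tested as sets, and these counts are not read as results about the pathways. All 14 genes of the triose and glycerate steps were tested, and 1 was called, *Gpd2*, the mitochondrial glycerol-3-phosphate dehydrogenase. It was lower in KPF (log2 fold change -1.88, SE 0.64, unadjusted p = 0.0198 in edgeR), at 0.43 to 0.98 FPKM against 2.96, 4.28 and 0.81 FPKM in WPF replicates 2, 3 and 4. The median of the list was -0.20. Of the 8 other polyol and pentose alcohol enzymes, 1 was called, *Akr1b7*, an aldo-keto reductase related to *Akr1b3*, with 2.19 to 4.53 FPKM in KPF and 6.19 to 14.9 FPKM in WPF (log2 fold change -1.62, SE 0.45, unadjusted p = 0.00742 in edgeR), and the list median was 0.11. Phosphorylation of fructose is known to draw on ATP and to feed purine breakdown. Of the 10 genes of purine breakdown 8 were tested, with a median of -0.18. *Uox*, which oxidizes uric acid in mice, was called lower, at 82.7 to 146 FPKM in KPF and 162 to 273 FPKM in WPF (log2 fold change -0.91, SE 0.33, unadjusted p = 0.0250 in edgeR). *Ampd1*, the AMP deaminase typical of skeletal muscle, was called higher from 7.46 FPKM in KPF replicate 2 alone, with 0.02 FPKM or less elsewhere.

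ChREBP targets were set beside the fructose genes. Of the 17 genes of ChREBP and its textbook targets 9 were called lower and 0 higher. Over all tested genes 3.98% were called lower. The list had a median log2 fold change of -2.54. The others, *Mlxipl*, *Mlx*, *Txnip*, *Arrdc4*, *Tm6sf2*, *Gpd1*, *G6pc* and *Fgf21*, were not called, at -2.59 (*G6pc*) to 0.33 (*Txnip*). Examples of the called genes are *Acacb* (acetyl-CoA carboxylase beta) at -2.41, *Pklr* (liver pyruvate kinase) at -2.90 and *Scd1* (stearoyl-CoA desaturase) at -4.74. The difference in size between these genes and the members was not tested. The position of WPF replicate 4 varied between genes. Relative to the geometric mean of the 3 WPF libraries, its log2 CPM was -1.69 for *Pklr*, -2.17 for *Fasn* (fatty acid synthase) and -2.85 for *Scd1*, -1.60 for *Khk*, -1.51 for *Tkfc* and -1.64 for *Gpi1*, but -0.39 for *Slc2a2* and -0.49 for *Gckr*. On the same scale the KPF libraries lay between -2.24 and -0.86 for *Slc2a2*, between -2.05 and -0.90 for *Khk* and between -1.69 and -0.65 for *Tkfc*.

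**Figure D4:**
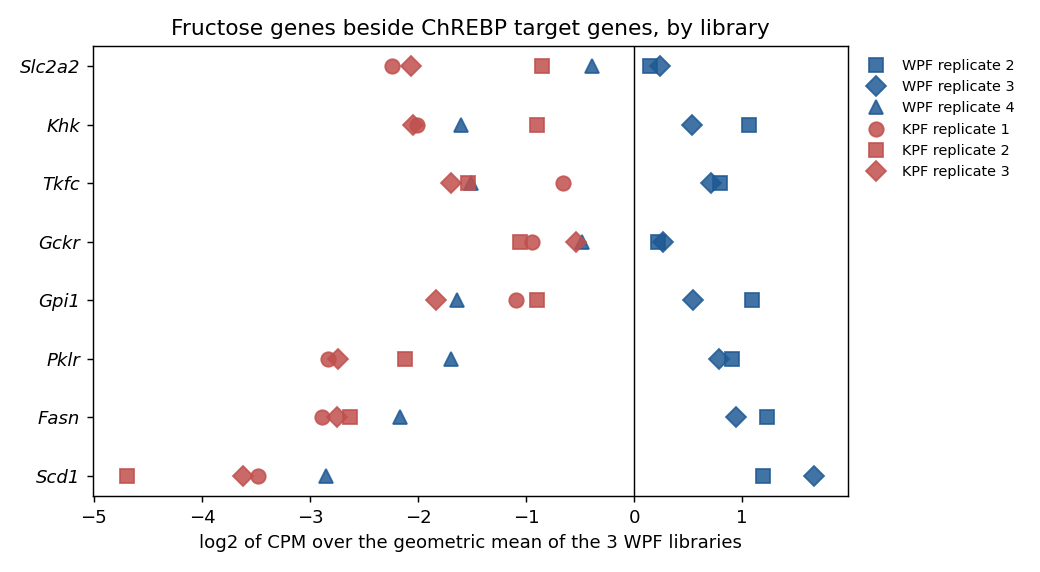
Log2 of CPM over the geometric mean of the 3 WPF libraries (horizontal axis) for 3 fructose genes, 2 genes of sugar phosphate handling and 3 ChREBP targets. Each symbol is 1 library. WPF replicate 4 (blue triangle) lies at -0.39 for Slc2a2 but between -1.51 and -2.85 for Khk, Tkfc, Gpi1, Pklr, Fasn and Scd1.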

How the data were processed

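Poly(A) RNA of 6 livers was sequenced as paired-end reads. The authors deposited 1 table that holds, for each gene, raw read counts and FPKM values. Per the submitters' processing notes, cutadapt 1.9.1, HISAT2 2.2.1, HTSeq 0.6.1 and DESeq2 were used with GRCm39, and the annotation release and strand setting were not given in the sources used here. The deposited FPKM values equal count/(exonic length × total count), and 100% of 340146 recomputed values matched within 0.0051. Symbols were found for 52073 of 56691 gene IDs.

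Counts were normalized by TMM (factors 0.891 to 1.18) and the groups were compared in edgeR 4.0.16 (R 4.3.3, glmQLFTest, no covariate), with Benjamini-Hochberg adjustment over the 10866 genes whose mean FPKM reached 1. Members below that minimum were fitted beside the tested genes in a separate fit, without adjustment of p. Exact two-sided permutation tests used log2 CPM for single genes, the untransformed percentages for the shares and log2 FPKM ratios for the ratio. Alternatives were other size factors, filters, DESeq2 1.42.0, limma 3.58.1 on log2(FPKM + 1) and log2(FPKM + 0.1), each library left out in turn and a replicate block. The scripts were tested on simulated data, in which no library was made to stand apart as KPF replicate 2 and WPF replicate 4 do.

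Named genes were the 8 members, *Mlxipl*, in each list up to 3 called genes per direction by p or else the 2 with the smallest p, and the genes most correlated with *Khk* (5) and *Tkfc* (3). *Slc2a9*, *Fasn*, the genes of the ChREBP list that were not called and the markers named beside *Slc2a5* were added after their values were seen. The members and lists were chosen with earlier results of these data known. Some genes of the pathway and its lists are not reported here. Marker lists of 10 cell types were also read: Kupffer cells (0 of 7 called), cholangiocytes (0 of 2), erythroid cells (0 of 5), B cells (0 of 3), intestinal epithelium (0 of 1), sinusoidal endothelium (1 of 6, higher) and those given in the results. Replicate numbers 2 and 3 occur in both groups but stand for different dams, and every pair of libraries of 1 group differed by more than sampling noise (chi-square per gene 39.6 or more). The dams were separate animals per the study's methods. The tests take each dam as 1 replicate, and edgeR sets the group difference against the spread between dams.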

Additional observations from a re-analysis of the deposited data

How the results depend on the processing

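The log2 fold changes of *Khk*, *Tkfc* and *Slc2a2* were negative and those of *Glyctk* and *Akr1b3* positive in each of 15 alternatives, and *Slc2a2* kept its call in 15, *Khk* in 12 and *Tkfc* in 10. Leaving out each library, the log2 fold change ranged from -2.405 to -1.379 for *Khk*, -1.983 to -1.214 for *Tkfc*, -2.184 to -1.363 for *Slc2a2*, -1.511 to -0.1943 for *Slc2a5*, -0.1215 to 0.1212 for *Slc2a8*, -0.2961 to 0.2424 for *Sord*, 0.4339 to 0.7043 for *Glyctk* and 0.7496 to 1.636 for *Akr1b3*. The number of members called ranged from 1 (without WPF replicate 2) to 4 (without WPF replicate 4, with *Akr1b3* added), that of genes called higher from 324 (without WPF replicate 3) to 910 (without KPF replicate 3) and that of genes called lower from 246 to 709 in the same fits. Without KPF replicate 3, *Akr1b3* and *Glyctk* were called and *Khk* and *Tkfc* were not. With limma on log2(FPKM + 0.1), *Tkfc* was at -1.419 (unadjusted p = 0.0506). Genes called higher and lower were 634 and 433 with TMM but 371 and 729 with library totals, which moved the median over all tested genes, on the log2 scale, from 0.02 to -0.12. They were 1576 and 910 without a filter, which tests more genes, 255 and 205 at a mean FPKM of at least 5, which tests fewer, 238 and 552 with limma on log2(FPKM + 1), and 257 and 681 with limma on log2(FPKM + 0.1). The cause was not tested for the other changes.

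Deviations from the group means correlated at 0.0468 for replicate 2 and 0.0125 for replicate 3. This gave no sign that the replicate numbers pair the dams, but with 3 libraries per group it cannot exclude a pairing. With a replicate block the group difference rests on replicates 2 and 3, since KPF replicate 1 and WPF replicate 4 have no partner of the same number. In that fit 4 members were called, and 680 genes were called higher and 551 lower. The log2 fold change was -2.27 for *Khk*, -2.37 for *Tkfc* and 1.420 for *Akr1b3* (unadjusted p = 0.0301 in edgeR). It was 0.1492 for *Slc2a5*, 0.1502 for *Slc2a8* and 0.3983 for *Sord*, and these last 3 changed sign without a call. Adjusted p-values over the alternatives ran from 0.0168 to 0.823 for *Slc2a2*, 0.0410 to 0.823 for *Khk* and 0.107 to 0.823 for *Tkfc*, and the number of genes with an adjusted p under 0.05 was 286 without a filter, 156 with DESeq2, 5 without WPF replicate 4, 1 with limma on log2(FPKM + 0.1) and 0 otherwise. With 4 to 74 reads per library, *Slc2a5* and *Akr1b3* are limited by depth.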
